A study of Mus musculus with 200 samples.

Results

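Single medullary thymic epithelial cells were counted for 38406 genes in 200 wells, and the 61 cells labelled WT_GFPhi are described here for how they differ from each other. Messenger RNA was copied from its poly(A) tail with an oligo(dT) primer, for which the labels give a name by cell, such as ls_14 or umi_13, and was amplified linearly by transcription in vitro. These cells came from Aire wild-type female B6xNOD mice aged 5 weeks and were sorted as CD45-, Ly51-, MHCII+ and GFPhi. They are read beside 39 cells labelled WT_GFPlo, from the same genotype with low GFP, and 48 labelled KO_GFPhi, from Aire knockout mice with high GFP. All of these mice, the knockouts included, carried the AireGFP reporter as a mark of Aire expression, so the groups are defined by a reporter gate and not by Aire itself. The labels name no animal, so each group counted as 1 sample, cells are not replicates, and no difference between groups was tested. Every value by cell is given after each cell was thinned at random, without replacement, to 13300 counts. Of the 61 wild-type GFP-high cells, whose lowest, median and highest totals were 4676, 34324 and 370365 counts, 48 reached that depth, 16 from the first sort date and 32 from the second. Of the like groups, 29 of 39 wild-type GFP-low and 40 of 48 knockout GFP-high cells reached it. The cells that reached it shared no primer between groups, so group and primer cannot be told apart.

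Medullary thymic epithelial cells show the body's own proteins to developing T cells. To do so they transcribe genes that otherwise belong to other tissues, such as milk caseins, pancreatic hormones or liver proteins, and the nuclear regulator Aire is needed for many of them. A single cell is known to transcribe only part of this repertoire, so that each such gene is found in few cells. Variation among cells is therefore part of how this cell type works, and it can be read in how many cells hold a gene, how much of it they hold, and which genes are held together.

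Some wells held the same rare genes as other wells, which bears on every measure of variation below. Rare genes were taken here as genes with at least 10 counts in 1 to 6 of the 200 cells, before thinning. In 7 library pools a wild-type GFP-high cell primed with the oligonucleotide named ls_5 could be set beside the ls_12 well of the same pool, which is labelled KO_GFPlo, a knockout cell with low GFP. The ls_12 well shared 311 of the 338 rare genes of the poorer cell of each pair, or 92.0%. In pool 12, Wdr96 had 176 counts in the ls_5 well and 163 in the ls_12 well, Tln2 had 143 and 141, and Smoc2 had 90 and 88. The labels thus put near-equal counts in cells of opposite genotype, and which label these counts belong to was not tested.

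A weaker sharing ran through cells with the same primer. Cells of the same primer and sort date in different pools shared 23.6% of rare genes, over 98 cell pairs. The share was 3.94% for the same primer on different dates, 3.76% for the same pool with different primers, and 2.88% for cells that shared neither. The ls_23 well of pool 6 shared all 46 of its rare genes with the ls_23 well of pool 5, and the ls_23 wells of pools 11 and 12 shared 283 of 413. At the thinned depth, 1405 named genes were found in exactly 2 cells, and in 549 of them (39.1%) both cells had the same primer, although only 10.9% of cell pairs did. Why wells shared counts was not tested. Results that rest on few cells are therefore given with all 48 cells and again in up to 5 other ways, all chosen after the sharing was seen. These leave out the 5 ls_5 wells, leave them out and also keep a gene's count only in the cell with most of it among the cells of its primer and sort date, take 1 cell per primer and sort date (14 cells), or take the expected number within each of the 8 primers or within the ls and umi primers.

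**Figure D1:**
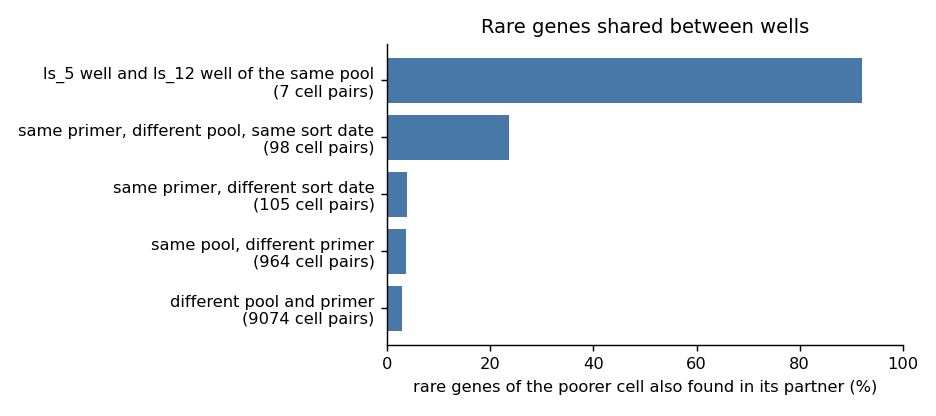
Share of rare genes (at least 10 counts in 1 to 6 of the 200 cells) of the poorer cell that its partner also held, for pairs of cells that include a wild-type GFP-high cell, by what the wells have in common. The bar for ls_5 and ls_12 wells of the same pool reaches 92.0% and that for the same primer and sort date 23.6%, while the other classes lie between 2.88% and 3.94%.

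The cells held the markers of their label. Aire was found in 46 of 48 cells (95.8%), with 0 to 22 counts per cell and a median of 8. The exact binomial 95% interval of that share, 85.7% to 99.5%, treats cells as independent draws, although wells shared counts. It does not cover variation between animals. Fezf2, a second regulator of tissue genes in these cells, was found in 43 cells with 0 to 60 counts and a median of 6.5. Of the MHC class II genes, H2-Aa and Cd74 were in every cell. H2-Aa, an alpha chain, had 13 to 202 counts with a median of 51, and Cd74, the invariant chain, had 36 to 261 with a median of 114. These genes thus varied several fold in amount between cells at equal depth without being lost from any.

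The epithelial keratins were less even. Krt8, a keratin of simple epithelia, was in all 48 cells with 1 to 53 counts. Krt14 and Krt5, a keratin pair of basal cells, were in 32 and 15 cells, with highest counts of 15 and 6. Epcam, the epithelial adhesion molecule, was in 37 cells, and Ins2, an insulin gene, was in 2, with 3 counts at most. Within each sort date the cytometer's GFP intensity did not overlap with that of GFP-low cells, at 16415 to 44429 against 1871 to 11329 arbitrary units on the first date and 8169 to 88538 against 350 to 4483 on the second. Across cells, GFP intensity and Aire counts had a Spearman rho of 0.36 on the first date (16 cells) and 0.54 on the second (32 cells), given as a description.

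All 48 thinned cells also held counts of leukocyte genes, although the gate excludes CD45. The most frequent of the listed genes, Cd52, Laptm5 and Rac2, were in 46, 40 and 39 of them. A cell is called leukocyte-marked here where its counts over 29 leukocyte genes exceeded those over 14 epithelial genes, and 16 of 61 cells were, 12 of them among the 48. At the thinned depth the leukocyte genes summed to 11 to 128 counts in these 12 and to 6 to 77 in the other 36, and the epithelial genes to 4 to 55 and 25 to 147, so both sums overlap. Aire and Csn2 were found in 12 of 12 leukocyte-marked cells, with medians of 6 and 14.5 counts. Each was in 34 of 36 others, with medians of 8 and 15.5. Some marked cells held few counts of Aire and Csn2, with 1 and 1 in the umi_13 well of pool 11 and 3 and 1 in the ls_23 well of pool 12. Fezf2 was found in 9 of 12, with a median of 2 counts, against 34 of 36 others with a median of 9. Ptprc, which encodes CD45, was in 5 of 12 and 4 of 36, and Cd3e, a T cell receptor subunit, in 0 of 12 and 1 of 36.

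Plasma-cell transcripts were high in few of these cells. Igj, the joining chain of secreted antibodies, was in 26 of 48 cells with a mean of 31.1 counts, and 46.3% of its counts were in 1 cell. The B-lineage genes summed to 986 counts in the umi_13 well of pool 11, and to 545 and 207 in the ls_23 wells of pools 12 and 11, which share a primer. All 3 were leukocyte-marked. The part of leukocyte transcripts in the results below was not tested, and the main counts and ratios are also given without these cells.

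Detection followed the mean level but fell short of the number from a Poisson draw. At the thinned depth 15813 genes were found in at least 1 of the 48 cells. For each gene the number of cells was set beside the number that a Poisson draw of the same mean gives. That is the number that would be found if each count were a molecule and counting were the only source of variation. Whether molecular identifiers were collapsed is not given in the sources used here, which also bears on the Fano factors and rare high genes below. The part of amplification in the shortfall was not tested. Among the 4365 genes with a mean of 0.3 to 1 count, the median gene was found in 11 cells where the Poisson number was 20.1. For the 2075 genes with a mean of 1 to 3 these values were 23 and 37.1, and for the 560 genes with a mean of 3 to 10 they were 38 and 47.3. Most genes thus sat in fewer cells, at higher counts, than a Poisson draw of the same mean would give. The gap closed for the 161 genes with a mean of 10 or more, whose median was 48 of 48 cells.

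Of 2796 genes with a mean of at least 1 count, 496 (17.7%) were found in at most 50% of the Poisson number of cells. The share was 20% without leukocyte-marked cells (570 of 2850) and 21.4% with 1 cell per primer and sort date. In the like groups the same count gave 27.8% over 29 wild-type GFP-low cells and 12.2% over 40 knockout GFP-high cells, and the numbers of cells differ.

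**Figure D2:**
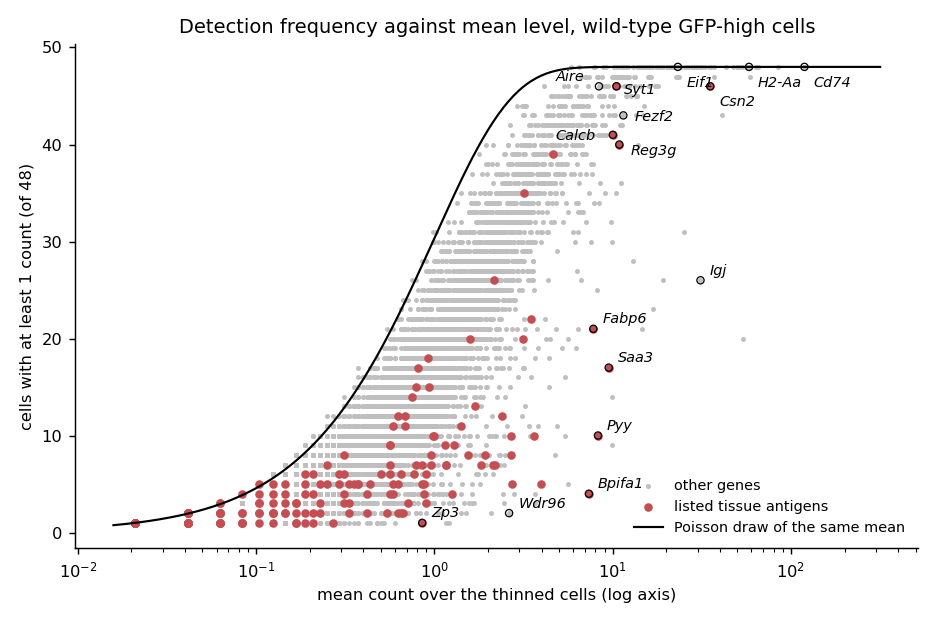
Number of the 48 thinned wild-type GFP-high cells with at least 1 count of a gene (vertical axis) against the gene's mean count over those cells (log axis). Grey points are genes, red points the listed tissue antigens, and the line is the number a Poisson draw of the same mean gives: Aire, Syt1 and Csn2 lie close under the line at 46 cells, while Pyy, Saa3 and Bpifa1 lie far below it at 10, 17 and 4 cells.

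The most even genes were found in nearly all cells. A mean of at least 5 counts already gives a Poisson number close to 48 cells, so this largely follows from how they were chosen. Among genes with a mean of at least 5 counts, those with the lowest Fano factor (variance over mean, 1 for a Poisson draw) were Bard1 at 2.29, Cox6a1 at 2.61, Tceb2 at 2.80, Usmg5 at 2.83, Atp5k at 2.84, Cltc and Eif1 at 2.89 and Serbp1 at 2.93. Bard1 encodes the partner of the DNA repair protein Brca1, Cox6a1 a subunit of cytochrome c oxidase, and Usmg5 and Atp5k parts of the ATP synthase. Tceb2 encodes elongin B, Cltc the clathrin heavy chain, and Eif1 a factor that selects the start codon in translation. Eif1 and Cox6a1 were found in 48 of 48 cells, and no cell held more than 6.69% of the counts of any of the 8.

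Lists of housekeeping genes, of the cell's own machinery and of tissue antigens differed in how far their members fell below the Poisson number. Of housekeeping genes with a mean of at least 1 count, 0 of 23 were found in at most 50% of that number, beside 17.7% of all genes. The count was 0 of 10 for partners of Aire, 1 of 14 for MHC class II genes and their regulators, 2 of 14 for medullary genes, 1 of 9 for epithelial genes and 1 of 8 for leukocyte genes. It was 3 of 9 for cell cycle genes, 4 of 17 for immediate early and heat shock genes, 5 of 16 for interferon-induced genes, 2 of 4 for cortical epithelial genes, 1 of 4 for myeloid genes and 4 of 6 for B-lineage genes. Stromal and thymocyte lists had 1 such member each, which did not fall that low, and the tuft cell list had 0.

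The listed tissue antigens were more uneven than other genes of the same mean. Of 33 antigens with a mean of at least 1 count, 25 were found in at most 50% of the Poisson number of cells. The 19 antigens with a mean of 1 to 3 were found in a median of 8 cells, where all genes of that class had 23 and the Poisson number was 39.1. In that class the top cell held a median of 49.6% of an antigen's counts, against 16.1% for all genes. All 7 liver genes and all 3 gut genes that reached a mean of 1 fell that low, as did 5 of 6 genes of cornified skin, 4 of 6 of secretory glands, 3 of 4 of pancreas, 2 of 4 of neurons and the 1 reproductive gene. The milk and muscle genes that reached it, Csn2 and Ttn, did not, and 0 genes of the urinary tract reached it. A gene can reach a mean of 1 through 1 high cell, which also sets it below the Poisson number. The top cell held 88.4% of the counts of Fgb and 78.6% of Apoa4, of the liver list, and 90.1% of Bpifa1, of the gland list. These counts by list are therefore not independent of the filter, which was the same for all genes.

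A few antigens were found in most cells. Of 281 listed antigens, 112 were in no thinned cell, 94 in 1 to 4 cells, 68 in 5 to 24 and 7 in more than 24. The share of detected members found in 1 to 4 cells was 55.6%, against 44.1% of all detected genes. The 7 frequent antigens were Csn2, beta-casein of milk, and Syt1, the calcium sensor of synaptic vesicles, in 46 cells each, Calcb, the neuropeptide CGRP beta, in 41, Reg3g, an antibacterial lectin, in 40, Lyz1, a lysozyme of Paneth cells, in 39, Lpo, lactoperoxidase, in 35, and Dsg1a, a skin desmoglein, in 26. Csn2 (chr5:87692624-87699630, mm10) ranged from 0 to 210 counts per cell with a median of 15.5, so that a frequent antigen could still differ widely in amount.

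Other antigens were found in fewer cells, at high counts in some of them. Fabp6, the bile acid binding protein of the ileum, was in 21 cells with a mean of 17.8 counts in those cells. Saa3, an acute-phase serum amyloid, was in 17 cells with a mean of 26.8, and Pyy, the hormone peptide YY of gut and islet cells, listed here under pancreas, in 10 with a mean of 39.7. The top cell held 26.7%, 54.4% and 58.4% of their counts. Fgb, the fibrinogen beta chain of the liver, was in 5 cells with a mean of 38, and 88.4% of its counts were in 1 cell.

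Cells differed in how many listed antigens they held and in which one led. The number of listed antigens per cell ran from 4 to 44 with a median of 20.5, and their share of a cell's counts from 0.0526% to 4.98% with a median of 1.07%. The antigen with most counts was Csn2 in 17 cells, Syt1 in 6, Saa3 in 4 and Reg3g in 3, and 17 antigens led at least 1 cell. Bpifa1, an airway secretory protein, led the ls_13 well of pool 12 with 318 counts, Saa3 the umi_13 well of pool 12 with 248, Pyy the ls_14 well of pool 12 with 232, and Csn2 the ls_6 well of pool 8 with 210. The leading antigen of these 4 cells thus came from the gland, liver, pancreas and milk lists in turn. Across the 48 cells, the number of antigens had a Spearman rho of 0.28 with the number of genes and of 0.06 with the Aire count, given as descriptions over cells that share libraries.

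Cells held a similar number of genes in all of the groups compared, and the median number of antigens was lowest in the knockout cells. Wild-type GFP-high cells held 2116 to 3783 genes with a median of 3099.5, against medians of 3030 in wild-type GFP-low and 3067.5 in knockout GFP-high cells. The median number of antigens was 20.5, against 18 (5 to 38) and 14 (7 to 23), and the ranges overlap. With 1 cell per primer and sort date the medians of antigens were 21, 20 and 14 over 14, 11 and 11 cells, and they were 21, 20 and 14 as well without leukocyte-marked cells. Rare high genes, described next, numbered 131, 102 and 38 over 48, 29 and 40 cells, and 101, 96 and 41 with 1 cell per primer and sort date. In the knockout cells 1 cell, the ls_9 well of pool 10, held 18 of the 38. The number of cells sets what counts as rare, and with 1 sample per group none of these differences was tested. Group and primer also cannot be told apart in them, since these groups shared no primer.

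**Figure D3:**
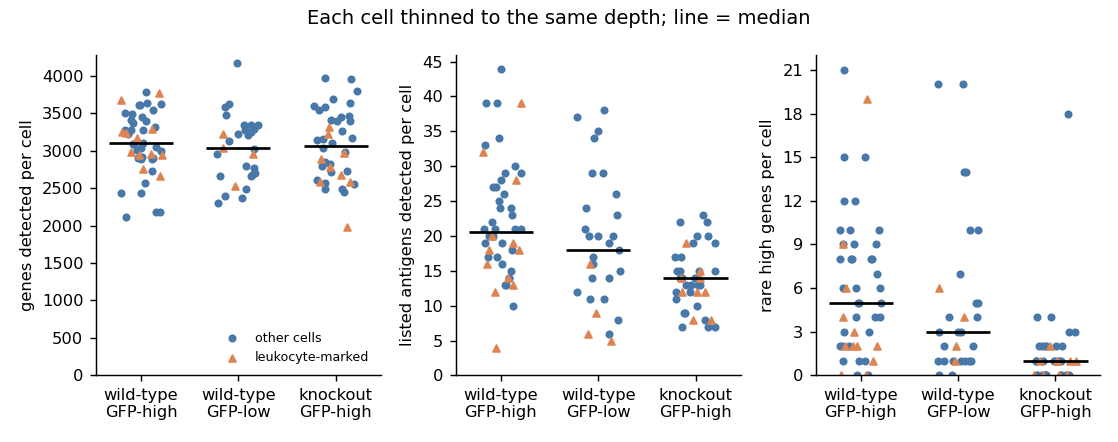
Genes detected, listed antigens detected and rare high genes per cell at the thinned depth in wild-type GFP-high, wild-type GFP-low and knockout GFP-high cells. Each point is a cell, triangles are leukocyte-marked cells and lines are medians: 3099.5, 3030 and 3067.5 genes, and 20.5, 18 and 14 antigens.

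Genes in few cells but at high level were taken as those in at most 4 of the 48 cells with a mean of at least 10 counts in the cells that had them. There were 131, or 0.828% of the genes detected, out of 6969 found in at most 4 cells. The means nearest to the limit were 10 inside and 9.75 outside. Of the 131, 41 were in 1 cell and 90 in 2 or more, 110 of all were named genes rather than gene models, and 13 were listed antigens. A cell held 0 to 21 of them with a median of 5, 4 cells held none, and 26 had their top count in a leukocyte-marked cell.

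Rare high genes were unevenly spread over wells, and many lay on 1 primer. Of the 90 in 2 or more cells, gene models included, 36 (40%) had all of those cells on 1 primer, in different pools. The 39.1% given above is for named genes in exactly 2 cells, while these were in 2 to 4 cells. The shares are therefore not like for like, and whether rare high genes lie on 1 primer more often was not tested. The ls_5 well of pool 12, one of those that shared counts with an ls_12 well, was the top cell of 19 of the 131. Without leukocyte-marked cells there were 116 such genes over 36 cells. Leaving out the ls_5 wells gave 129, 107 of them among the 131. With a count also kept only in the top cell of each primer and date there were 260, 105 of them among the 131. A gene reaches fewer cells in that count by construction.

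Bpifa1 (chr2:154142880-154149219), the airway protein named above, had the highest mean in the cells that held it. Its thinned counts were 318, 32, 2 and 1, all in ls_13 wells, of pools 12, 11, 8 and 10. Nts, the precursor of the peptide neurotensin, had 84, 33 and 1 counts, all in ls_6 wells of the first sort date. Pcp2, a Purkinje cell protein, had 51, 27 and 2 counts, and Lrcol1 had 48, 18 and 4, all in the ls_14 wells of pools 12, 11 and 10. Clec4n, the fungal receptor dectin-2, had 37 and 16 in the first and second of these wells. In each case the counts fell from 1 well to others of the same primer, so these genes cannot be told apart from genes present in 1 cell.

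Other rare high genes were found with more than 1 primer. Chodl, a membrane lectin, had 86 and 79 counts in the ls_23 wells of pools 5 and 6, and 8 and 3 in ls_5 wells of the same pools. Mcpt4, a mast cell protease, had 46 and 26 in those ls_23 wells and 3 in an ls_5 well. Spink12, a protease inhibitor, had 122, 9 and 3 counts in ls_14 wells and 1 in an ls_5 well. Akr1c18, which inactivates progesterone, had 108 and 3 counts in umi_14 wells and 4 and 1 in ls_23 wells, and its top cell was leukocyte-marked.

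A further set was high only in the ls_5 well of pool 12. Wdr96 had 121 counts there and 5 in another cell, Tln2, which links integrins to actin, 99 and 1, and Smoc2, a secreted matrix protein, 70 and 2. Copg2, a coatomer subunit, had 66 and 2. Zfp608 had 76, 1 and 1, and Scn2a1, a neuronal sodium channel, 59, 1 and 1. Among genes found in 1 cell only, Psma8, a proteasome subunit of the testis, had 56 counts, Strc, a protein of inner ear hair cells, 29, Csgalnact1, an enzyme of chondroitin sulfate synthesis, 25, and Cyp3a44, a liver cytochrome, 23, again in this well. Outside it, Zp3, a protein of the egg coat, had 41 counts in the ls_13 well of pool 8, which was leukocyte-marked, Mtus2 had 24 in the ls_14 well of pool 1, and Ccrl1 had 21 in the ls_6 well of pool 4.

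The genes with the lowest ratio of cells found to Poisson cells, among those with a mean of at least 1 count, were drawn from these. Psma8 was in 1 cell where the Poisson number was 33.1, Wdr96 in 2 against 44.5, Tln2 in 2 against 42.02 and Bpifa1 in 4 against 47.97. Smoc2, Copg2, Clec4n, Nts, Pcp2, Zfp608, Mcpt4 and Lrcol1 made up the rest of the 12. All are rare high genes as well, so the 2 rankings are not independent.

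**Figure D4:**
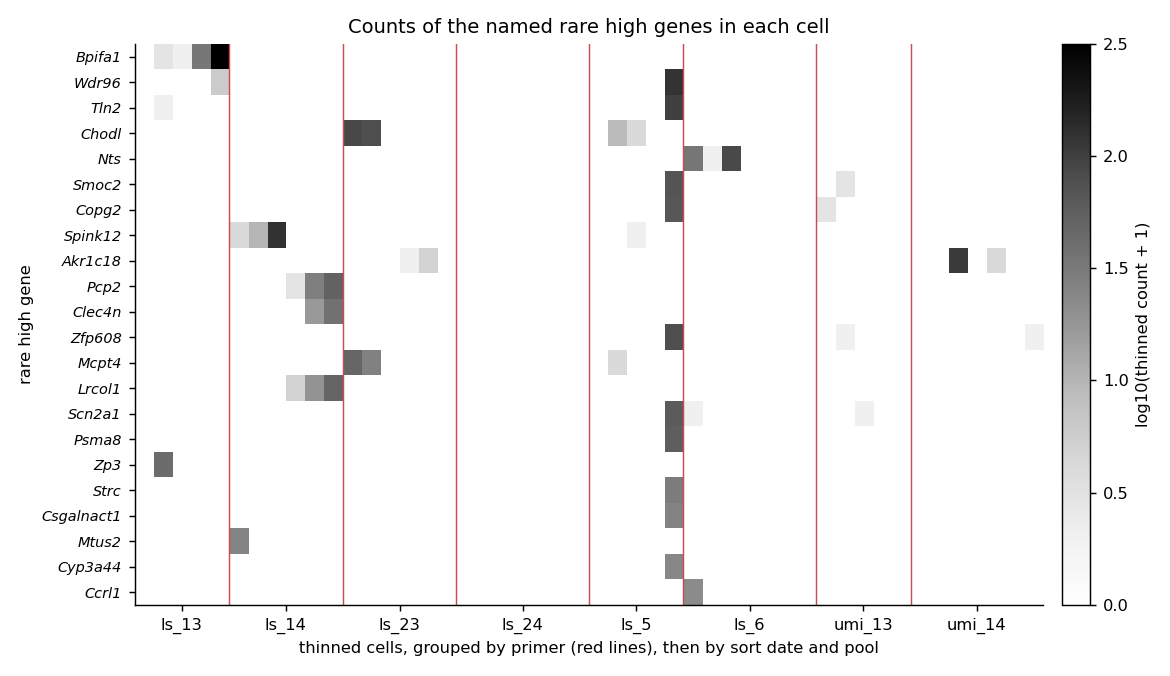
Thinned counts, as log10(count + 1), of 22 rare high genes (rows) in each of the 48 cells (columns), ordered by primer, sort date and pool with red lines between primers. Bpifa1 lies in ls_13 wells only, Pcp2, Clec4n and Lrcol1 in ls_14 wells only, and Wdr96, Tln2, Smoc2, Copg2, Zfp608, Scn2a1, Psma8, Strc, Csgalnact1 and Cyp3a44 have their high count in the same ls_5 well.

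Gene pairs were then compared with what their frequencies predict. Over the 8151 genes found in 10% to 90% of the 48 cells and not overlapping on the genome, 33214746 pairs were compared. A pair was called where both genes were found together in at least 4 cells and at least 2 times the number of cells that their separate frequencies give. Of all pairs 1.98% were called, and the summed observed cells were 1.02 times the expected. The share was 1.71% without leukocyte-marked cells (36 cells), 1.76% without ls_5 wells (43 cells) and 0.183% with 1 cell per primer and sort date, where 14 cells leave little room for 4 observed. With the expected number taken within ls and umi primers it was 1.69%, and within each primer 0.541%. The number of called pairs thus depended on how cells of the same primer were treated.

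The pairs with the highest phi coefficient, a correlation of presence that is 1 when both genes are in exactly the same cells, were unlinked genes in few cells. Among named genes, 12 pairs had a phi of 1, and taking each gene once left 8: Ap4m1 with Mtbp, Ckap2l with Map4k1, Ctns with Ush1c, Eid2 with Tac4, Gas8 with Gpr142, Il4 with Upk1a, Mmp13 with Ssh3 and Pelp1 with Spn. Each pair was in 5 cells where 0.521 were expected. No pair of these 8 is on the same chromosome, and their 5 cells had 1 or 2 primers. Ckap2l, a spindle protein, and Map4k1, a kinase of blood cells, were together only in wells of 1 primer, and within primers 3.57 cells were expected. Gas8, a ciliary protein, and Gpr142, a receptor of pancreatic islets, were likewise on 1 primer, with 4.17 expected within it.

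Further pairs among the 12 highest, taking each gene once, were Abca13 with Mmp16, in 8 cells where 1.5 were expected, Klk1 with Wfdc17 in 7 against 1.17, and Arhgap11a with Znhit2 in 6 against 0.875. Within primers the expected cells were 6.57, 3.02 and 3.87. Klk1 is a tissue kallikrein of salivary gland, and Wfdc17 a small secreted protein of the whey acidic protein family. Summed, the 12 pairs were found in 69 cells against 9.21 expected, which is how they were chosen. In cells not used to choose them they were found together in 8 cases against 4.62 expected in wild-type GFP-low cells, and in 2 against 2.08 in knockout GFP-high cells. Both genes of a pair were detected at all for only 5 and 9 of the 12 pairs there, of which 3 and 2 were above their expected number, and the other pairs could not be seen. Klk1 with Wfdc17 made up 5 of those 8, with 2.28 expected. Cells of the like groups had other primers, so group and primer cannot be told apart here either.

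Without leukocyte-marked cells 123 named pairs tied at a phi of 1, so any 12 of them are an arbitrary choice. The 12 that came first in the alphabet, among them Abcc5 with Eid2, Acer3 with Pigr, Atf6b with Fam13b and Atp6v0a4 with Ces1g, were found together 53 times in the 48 cells against 7.69 expected. The same 12 came to 7 against 5 in wild-type GFP-low and 8 against 6.63 in knockout GFP-high cells. Ap4m1 with Mtbp was in both sets.

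Genes that neighbour each other on the genome were found together slightly more often than distant ones. For the 3010 pairs whose starts lie less than 50 kb apart, the observed cells were 1.06 times the expected, and 2.56% of pairs were called. The ratio was 1.03 at 50 to 200 kb, 1.02 at 200 kb to 1 Mb and 1.02 on different chromosomes, where 1.98% were called. Without pairs whose names share a stem, as most gene families do, it was 1.06. It was 1.06 against 1.02 on different chromosomes without leukocyte-marked cells, 1.07 against 1.02 without ls_5 wells, 1.05 against 1.02 with expected numbers within each primer, and 1.07 against 1.03 with 1 cell per primer and sort date. In the like groups it was 1.07 against 1.02 in wild-type GFP-low cells and 1.04 against 1.02 in knockout GFP-high cells. The excess was small and ran the same way in each of these.

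For rare genes, found in 2 to 4 of the 48 cells, the excess of neighbours was larger with all cells and smaller in each of the other ways of counting. With all cells the 750 pairs under 50 kb were found together 233 times where 121.7 were expected, a ratio of 1.91, against 1.23 at 50 to 200 kb and 1.06 on different chromosomes. Pairs without a shared name stem gave 1.59. The ratio under 50 kb was 1.53 without leukocyte-marked cells, 1.82 without ls_5 wells, 1.51 with expected numbers within each primer, 1.36 with the count kept in the top cell of each primer and date, and 1.11 with 1 cell per primer and sort date, where 2 to 4 of 14 cells is a more frequent class. The ratio on different chromosomes was 1.05, 1.06, 1.05, 1.1 and 1.04 in the same order. In the like groups the ratio under 50 kb, against that on different chromosomes, was 1.19 against 1.04 in wild-type GFP-low and 1.11 against 1.06 in knockout GFP-high cells. There 2 to 4 cells is a larger share of the 29 and 40 cells than of 48, and cells of the same primer were not handled apart. These values are therefore not like for like with 1.91.

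**Figure D5:**
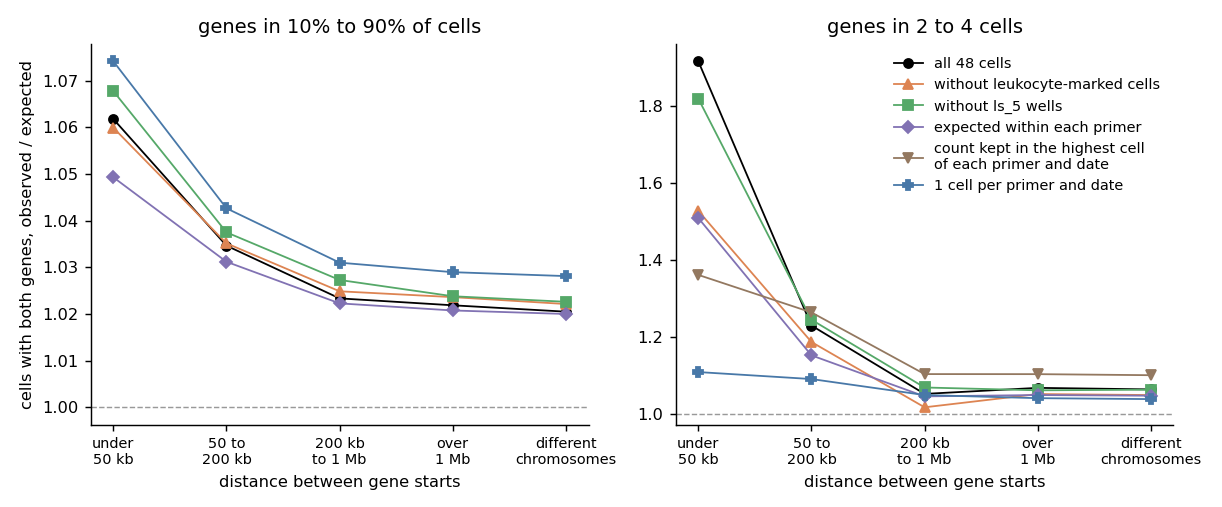
Observed over expected cells that hold both genes of a pair, by distance between gene starts, for genes in 10% to 90% of cells (left) and for genes in 2 to 4 cells (right; the vertical axes differ), with lines for each way of handling cells that share counts. Under 50 kb the values lie between 1.05 and 1.07 on the left and fall from 1.91 with all 48 cells to 1.11 with 1 cell per primer and date on the right.

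The pair of common neighbours with most cells above expectation, taken over all 48 cells, was Cxcl1 and Cxcl2, which encode chemokines that attract neutrophils. Cxcl1 lies at chr5:90891241-90893115 and Cxcl2 at chr5:90903871-90905938 (mm10, plus strand), with starts 12630 bases apart. Both were in 12 cells, Cxcl1 alone in 2, Cxcl2 alone in 6 and neither in 28, where 5.25 cells with both were expected. Their highest counts, 50 and 93, were in the same umi_14 well of pool 2, and their second, 30 and 22, in the umi_13 well of pool 12. The median of Cxcl2 was 4 counts in cells with Cxcl1 and 0 in the others. Their coding parts are alike, and whether reads of either were in part counted for the other was not tested.

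Primer kind went with this pair. Cxcl1 was in 9 of 12 cells with umi primers and in 5 of 36 with ls primers, and the expected number was 8.61 within the primer kinds and 8.99 within each primer, against 12 observed. With 1 cell per primer and sort date both were in 5 of 14 cells against 2.5 expected. In wild-type GFP-low cells both were found in 0 of 29 cells against 0.414 expected, and in knockout GFP-high cells in 1 of 40 against 1.

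The 150 bases before each RefSeq start are printed since the pair lies side by side on the same strand, and their letters can be compared (RefSeq, GRCm38.p6, 5′ to 3′, plus strand). They span chr5:90891095-90891244 for Cxcl1 and chr5:90903749-90903898 for Cxcl2. Capitals mark the 2 runs of at least 10 bases that the windows share. The first, GGGAATTTCCCTGG, begins with a form of the NF-kappa-B site, and the second, GCATAAAAGG, ends with a form of the TATA box.
Cxcl1: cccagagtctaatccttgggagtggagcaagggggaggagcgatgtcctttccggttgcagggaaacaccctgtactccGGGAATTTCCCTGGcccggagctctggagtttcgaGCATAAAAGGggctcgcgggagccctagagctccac
Cxcl2: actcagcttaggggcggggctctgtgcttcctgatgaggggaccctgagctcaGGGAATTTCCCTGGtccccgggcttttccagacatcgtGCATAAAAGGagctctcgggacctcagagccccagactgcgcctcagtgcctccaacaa
The first run begins 71 bases before the RefSeq start of Cxcl1 and 97 before that of Cxcl2, and the second 36 and 59 bases before. The gene starts given above, 90891241 and 90903871, come from GENCODE and lie inside these windows. Distances to those starts are shorter, and how far they differ between the 2 genes depends on the annotation used. Both strands of 32851 promoters of the same length were searched, and the runs do not overlap. The first was held by 2 of them (0.00609%), which are these, and the second by 15 (0.0457%). The runs were chosen because this pair shares them, and a match describes letters and not binding.

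Hadha and Hadhb, the alpha and beta subunits of the mitochondrial trifunctional protein of fatty acid oxidation, were next. They are transcribed in opposite directions from starts 86 bases apart on chromosome 5. Both were in 17 cells against 10.5 expected, with highest counts of 14 and 6, and 13.2 were expected within the primer kinds and 14.3 within each primer. In wild-type GFP-low cells both were in 2 cells against 2.66 expected, and in knockout GFP-high cells in 5 against 4.

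The other 8 neighbouring pairs were of mixed function. Psmb6, a proteasome subunit, and Tm4sf5 were together in 19 cells against 13.5 expected, and Psmb8 and Psmb9, subunits of the immunoproteasome, in 22 against 17. Ndufb10, of respiratory complex I, and Noxo1, an organizer of an NADPH oxidase, were in 15 against 9.67, and Naa15 and Ndufc1 in 14 against 9. Within primers the expected cells for these pairs were 13.5, 18.4, 11.1 and 12.4 in turn. The epithelial keratins Krt76 and Krt77 were in 7 against 1.88, and 4.36 were expected within primers. Dnajc2 and Pmpcb were in 9 against 4.06, Saa1 and Saa3 in 9 against 4.25, and Babam1 and Nr2f6 in 10 against 5.25. For these, 5.97, 6.45 and 7.68 were expected within primers. Summed over the 10 pairs, which were chosen for their excess, the cells with both were 134 against 80.4 expected. The same 10 pairs gave 28 against 27.8 in wild-type GFP-low cells, with 4 of 10 above their expected number, and 42 against 42.15 in knockout GFP-high cells, with 2 of 10 above it.

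Among rare neighbours, 51 pairs were together in 2 or more cells, and in 42 of them all of those cells had the same primer. Pcp2 and Retn, the fat hormone resistin, were together in 3 cells, all ls_14 wells, and Lrcol1 and P2rx2, an ATP-gated channel, likewise in 3 cells of 1 primer. Tff1 and Tff2, trefoil peptides of the stomach mucosa, were together in 3 cells of 2 primers where 0.250 were expected, the kallikreins Klk1b3 and Klk1b24 in 3 cells of 2 primers against 0.333, and Cst8 and Cst12, cystatin-type protease inhibitors, in 4 cells of 2 primers against 0.333. Gene families with near-identical copies, such as these kallikreins, may share reads, which was not tested. With the count kept only in the top cell of each primer and date, 30 pairs were together in 2 or more cells. Cells of such a pair can then share a primer only across sort dates, so their primers say nothing further. They included Apoa4 and Apoc3, apolipoproteins of intestine and liver, in 3 cells against 0.279, Ppy and Pyy, which encode pancreatic polypeptide and peptide YY, in 2 against 0.140, and Tff1 and Tff2 in 2 against 0.0930.

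Antigens of the same tissue list had a slightly higher ratio of observed to expected cells than those of different lists, except in 1 comparison below. Among 129 listed antigens in 2 cells to 90% of cells, the 914 pairs within a tissue list were together 1253 times against 1002.7 expected, a ratio of 1.25, and 2.84% were called. The 7342 pairs between lists gave 1.12 with 1.24% called. These values cannot be set against the 1.02 and 1.98% called of all pairs, since those genes were in 10% to 90% of cells and antigens in 2 or 3 cells cannot be called. Pairs within a list that lie over 1 Mb apart or on different chromosomes gave 1.21. Within and between lists the ratios were 1.22 and 1.09 without leukocyte-marked cells, 1.21 and 1.14 without ls_5 wells, 1.16 and 1.07 with expected numbers within each primer, 1.2 and 1.11 with 1 cell per primer and date, and 1.32 and 1.28 with the count kept in the top cell of each primer and date. In that last count the far pairs within a list gave 1.24, below the 1.28 between lists, so the direction turned. The far pairs stayed above the pairs between lists without leukocyte-marked cells (1.18), without ls_5 wells (1.17), within primers (1.13) and with 1 cell per primer and date (1.16).

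The ratio was above 1 for some lists and below 1 for others, and several moved with the cells used. Pairs of pancreas genes were together 106 times against 68.4 expected (1.55), those of cornified skin 277 against 179.3 (1.54), of gut 167 against 115.4 (1.45), of liver 213 against 155.6 (1.37) and of muscle 77 against 59.9 (1.29). Gland genes gave 1.03 (207 against 201.4) and neuronal genes 0.949 (192 against 202.3). On smaller counts, milk genes gave 0.696 (2 against 2.9), reproductive genes 0.683 (11 against 16.1) and urinary genes 0.640 (1 against 1.6). Without leukocyte-marked cells liver fell from 1.37 to 1.22, and without ls_5 wells cornified skin fell from 1.54 to 1.27. With 1 cell per primer and date muscle and gland were below 1, at 0.925 and 0.913, neuronal genes above it at 1.24, and cornified skin at 1.16. With expected numbers within each primer the ratios for pancreas, cornified skin, gut, liver and muscle were 1.36, 1.34, 1.39, 1.09 and 1.24. Those for gland, neuronal, milk, reproductive and urinary genes were 1.06, 0.929, 1.12, 0.847 and 1.62, so milk and urinary genes turned above 1. With the count kept in the top cell of each primer and date, where counts are small, pancreas and liver gave 2.14 and 2.02, gut 1.54 and cornified skin 1.12, while muscle fell under 1 (0.986) and neuronal genes rose over it (1.14). The gut and pancreas lists hold peptide hormones and digestive proteins, and the liver list holds clotting, acute-phase and metabolic proteins.

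The antigen pairs with most cells above expectation came from the same tissue in some cases and from different tissues in others. Cck, the gut hormone cholecystokinin, and Pyy, which stands in the pancreas list here, were together in 8 cells against 1.67, all with ls primers, and 4.21 were expected within primers. Pyy was in 0 of 29 wild-type GFP-low and 0 of 40 knockout GFP-high cells, so the pair could not be seen there. Saa1 and Saa3, both acute-phase genes of liver, were together in 9 cells against 4.25, with 6.45 expected within primers. Fabp6 of the ileum and Ttn, the muscle protein titin, were together in 14 cells against 8.75, with 11.05 expected within primers, so pairs of unrelated tissues stood beside those of 1 tissue. Upk1a of the bladder, Zg16 of the gut, Tnni2 of fast muscle and Crisp1 of the epididymis were found together in 5 cells in each of 5 pairs, over 2 primers and 3 pools, where 0.521 to 0.729 were expected over all cells and 2.47 within primers.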

How the data were processed

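Values are raw counts, whole numbers for each gene in each cell, as deposited by the authors. The submitters' processing notes name TopHat, TopHat2, Picard 1.79, SAMtools 0.1.19, HTSeq and genome mm10, with no role or order. Whether molecular identifiers were collapsed is not given in the sources used here. The binomial interval given for Aire treats cells as draws and does not cover error in the counts of a cell. Library pool, primer, sort date and flow cytometer intensity come from deposited metadata, per the file headers. Every column of values had a sample. No filter on cells other than depth and no step for doublets was applied.

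Cells were thinned to 13300 counts, the 20th percentile of the 200 totals rounded down, with a fixed seed. Gene positions came from GENCODE M21 (GRCm38, the same build as mm10), where 34392 of 38406 names had a place. Overlapping genes were left out of pairs. The work was done in pandas 2.3.3 and numpy 2.4.6 under Python 3.11.15, with intervals from scipy 1.17.1 and plots from matplotlib 3.10.9, and was tested on simulated data.

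Named genes were the markers, the 15 rare high genes in 2 or more cells and the 8 in 1 cell with the highest mean in positive cells, the 12 lowest ratios to Poisson, the 8 lowest Fano factors, the 12 pairs of highest phi, the 10 neighbouring pairs with most excess cells, and up to 6 members per list. Gene models, pseudogenes, ribosomal and rearranged receptor genes were left out. Rare neighbouring pairs, other antigen pairs and single wells were chosen after their values were seen. A few items that the rule names are not reported here. The cells, the 25 gene lists and the measures were chosen with earlier results of these data known, and support for them is descriptive. No test was made over cells. Alternatives were other depths, a second seed, a threshold of 2 counts, each sort date, each pool left out, ls primers, leukocyte-marked cells or unnamed genes left out, other limits, and other expected numbers. Those on shared counts, on expected numbers within primers and on pools 10 and 12 together, and the result on rare neighbours, were added after the data were seen.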

Additional observations from a re-analysis of the deposited data

How the results depend on the processing

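No paired analysis was possible because no label ties cells of different groups to the same animal, and a replicate number is only a cell's name. Results were called unchanged where a median moved by less than 1 SD over cells (413 genes, 8.38 antigens), a count by at most 1.5 times, and the excess of a ratio over 1 by at most 1.5 times. None of the 3 ratios below fell under 1, while ratios of single antigen lists did.

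The median of 3099.5 genes per cell became 1935 at 5000 counts, 3523 at 20000 counts and 1857 with detection at 2 counts, and ran from 3027.5 to 3233 with each pool left out. The median of 20.5 antigens stayed within the SD in all 24 alternatives (20 to 21 with each pool left out). The 496 genes in at most 50% of the Poisson number became 78 at 5000 counts, 1140 at 20000 counts and 1021 on sort date 1 alone (414 to 614 with each pool left out). The 131 rare high genes became 37 at 5000 counts, 340 with detection at 2 counts, 67 on sort date 2 alone, 82 at most 5% of cells, 12 at a mean of 30 counts, and 260 with counts kept in the top cell of each primer and date, or 259 when leukocyte-marked cells were also left out (115 to 169 with each pool left out).

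The 659172 called pairs became 399909 at 5000 counts, 260013 with detection at 2 counts, 108420 and 431520 on sort dates 1 and 2, 94467 at 3 times the expected number, 51144 with 1 cell per primer and date, 179597 with expected numbers within each primer, and 397814 without pools 10 and 12 (468705 to 607622 with each pool left out).

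The ratio of neighbouring genes under 50 kb to genes on different chromosomes was 1.04 and became 1.02 on sort date 2 alone and 1.02 to 200 kb (1.03 to 1.05 with each pool left out). For rare genes it was 1.80 and became 1.13 and 1.45 on sort dates 1 and 2, 1.45 without leukocyte-marked cells, 1.504 with ls primers only, 1.32 to 200 kb, 1.49 without shared name stems, 1.07 with 1 cell per primer and date, 1.44 with expected numbers within each primer, 1.24 with counts kept in the top cell, 1.16 when leukocyte-marked cells were also left out, and 1.39 without pools 10 and 12. It was 1.52 without pool 11 and 1.51 without pool 12 (1.51 to 1.84 with each pool left out). The ratio within antigen lists to between lists was 1.12 and became 1.07 without ls_5 wells, 1.03 with counts kept in the top cell and 1.01 when leukocyte-marked cells were also left out (1.08 to 1.13 with each pool left out). The depth also set the cells used, 60 at 5000 counts and 41 at 20000 against 48, so depth and cells changed together. The causes of these changes were not tested.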
